A study of Mus musculus with 6 samples.

Results

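GFP-transfected and sorted cells were compared with untransfected cells of the same line over 11066 loci, out of 25001 in the series. A locus was taken when its FPKM reached 1 in either library. FPKM counts sequenced fragments per kilobase of transcript and per library depth. The series holds 6 poly(A) RNA libraries of the mouse thymoma line 427.1.86 (427 cells), 1 library per condition. All cells were grown in DMEM with FBS.

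The untransfected library came from cells labelled SPPL2b KD, treated with SPPL2b siRNA and DMSO, and is called the KD library here. SPPL2b is an intramembrane protease of the signal peptide peptidase-like family. The GFP library came from cells of the same label that were transfected with a GFP vector and sorted for GFP by flow cytometry. The GFP plus EICD library came from SPPL2b KD cells that received the GFP vector together with Flag-EICD, the intracellular domain of the membrane protease epithin/PRSS14 (gene St14), and were sorted in the same way. The KD plus PMA library came from SPPL2b KD cells given the phorbol ester PMA at 1 µM for 2 h. The remaining libraries were 427 cells, labelled wild type, carrying the pSUPER vector with DMSO or with 1 µM PMA for 2 h. The methods describe a stable shRNA in pSUPER and a cell line grown from 1 clone where the labels give an siRNA. Sorting took place the day after transfection.

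Serum was withdrawn for 2 h before DMSO or PMA in the 427 cells and before PMA in the SPPL2b KD cells. Withdrawal is not given separately for the KD library and is not mentioned for the sorted cells. Transfection, sorting and any difference in serum therefore differed together between the GFP and the KD library and cannot be told apart. With 1 library per condition there is no replicate check and no test, and "higher" and "lower" describe these libraries. Differences were computed as the log2 ratio of GFP to KD after 0.01 was added to each FPKM. A locus was called when the ratio passed 2-fold. Loci near the FPKM limit were low in both libraries. Dpp7, just inside it, had 1.00 in the KD and 0.669 in the GFP library, and Syngr3, just outside it, had 0.997 and 0.569. Pbp2, also just inside, had 0.386 and 1.00, and Mst1r, just outside, 0.199 and 0.997.

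The gene targeted by the knockdown was checked first. Sppl2b (chr10:80853006-80868705, GRCm38) was at 11.4 FPKM in the GFP and 13.4 in the KD library, beside 9.37 to 13.2 in the others labelled KD and 6.86 to 9.90 in the 427 libraries. At each treatment the libraries labelled SPPL2b KD thus had no lower Sppl2b level than the 427 libraries. The paper assessed its knockdown lines by real-time PCR normalized to GAPDH, and reported less PMA-induced EICD in them. Those are other measures than the FPKM of this locus. The locus overlaps Lsm7 on the opposite strand, and the FPKM of Lsm7 was 33.6 in the KD and 64.9 in the GFP library. St14, the gene that the transfected EICD comes from, had 81.8 in the KD, 69.6 in the GFP and 615 in the GFP plus EICD library, so that only the library labelled with EICD was high.

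The estimated depth was similar, about 25600000 fragments in the KD and 25100000 in the GFP library, from the smallest FPKM steps of long single-transcript genes. The 6 libraries ranged from 25100000 to 28400000. Thymic epithelial genes were present in both libraries, with 12 of 14 tested, including Foxn1 (13.2 in KD, 15.2 in GFP) and Epcam (209 and 153). Aire was listed at 0 in all 6 libraries. Of 14 T cell genes only Rag1 reached an FPKM of 1 (3.08 in KD, 2.53 in GFP), in a locus that also spans Rag2. Cd3e and Cd4 were listed at 0. Of 8 endothelial genes 0 reached it, of 12 myeloid genes 3 and of 10 fibroblast genes 2 in the KD and 1 in the GFP library.

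The sorted libraries also held transcripts of the pancreas that the unsorted libraries did not. Ins2, an insulin gene, was listed at 0 in all 4 unsorted libraries and had 27.7 FPKM in GFP and 38.9 in GFP plus EICD. Ins1 had 6.82 and 8.96, Iapp, the islet amyloid peptide, 5.25 and 5.70, and Gcg, the glucagon precursor, 1.95 and 2.24, each with 0 in the 4 unsorted libraries. Hormones of several islet cell types, such as Sst (0.392 in GFP) and Ppy (0.662), were among them. Sorting for GFP keeps transfected cells and removes others. Whether these transcripts came from the sorted cells or from RNA of another source was not tested and cannot be told apart here. In bulk RNA, fewer cells of a type and less RNA per cell cannot be told apart.

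Of 20 islet genes listed after their values had been seen, 19 were above 0 in the GFP library and 1 to 3 in the unsorted libraries, where the highest value was 0.118. The summed islet FPKM was 0.178 in the KD and 45.8 in the GFP library. Of 14 genes for digestive enzymes 12 were above 0 in the GFP and 1 in the KD library, led by Ctrb1 (0.882 in GFP) and Cela2a (0.841). The hemoglobin gene Hba-a1 had 0.305 in the KD, 2.52 in the GFP and 2.24 in the GFP plus EICD library. Alas2, the other erythroid gene tested, which encodes an enzyme of heme synthesis, had 1.77 in 427 cells, 1.61 with PMA, 0.290 in KD, 0.812 with PMA, 1.13 in GFP and 0.729 in GFP plus EICD, so its highest levels were in the 427 libraries. There were 215 annotated loci at 0 in all 4 unsorted libraries and above 0 in both sorted ones, and 33 with the reverse. Of the 215, 14 reached 0.3 in both sorted libraries, and 13 of these were in the islet or digestive enzyme lists. Both lists were made after the values were seen, so this overlap is not independent support. The beta cell factor Nkx6-1 was at 0 in the GFP library. These transcripts moved with transfection and sorting, and their part in the differences below was not tested.

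**Figure D1:**
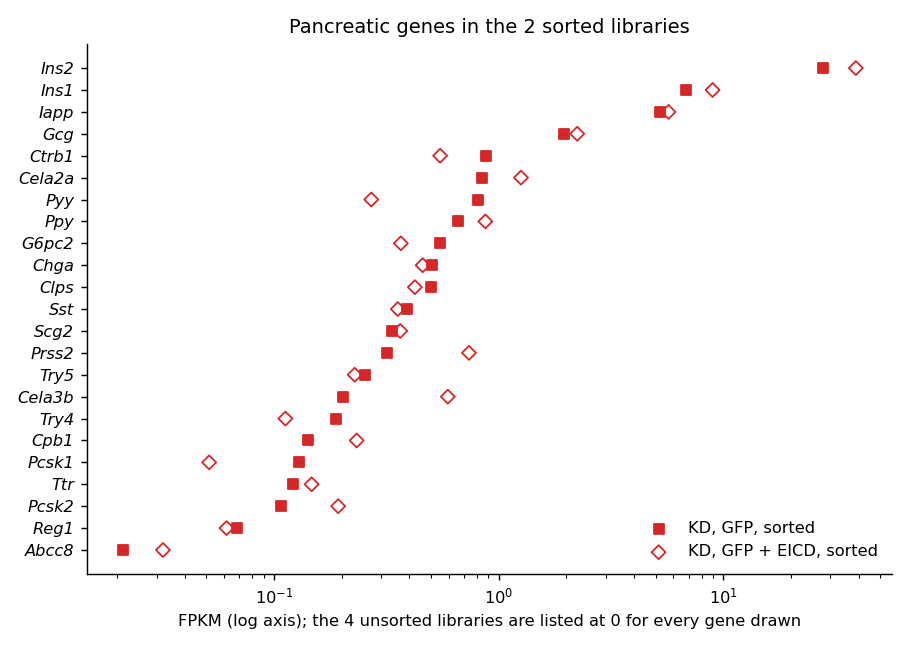
FPKM (log axis) of 23 islet and digestive enzyme genes in the GFP sorted library (filled squares) and the GFP plus EICD sorted library (open diamonds), 1 library each. All 23 were listed at 0 in the 4 unsorted libraries, and Ins2 was the most abundant, at 27.7 and 38.9.

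Over the 11066 loci, 444 (4.01%) passed 2-fold upward and 569 (5.14%) downward in the GFP library. The median log2 difference was -0.08. Newly assembled loci without annotation contributed many lower calls, with 206 lower and 86 higher of 643. Among the 10423 annotated loci the directions were balanced, with 358 (3.43%) higher and 363 (3.48%) lower. Calls were most frequent at low levels, with 174 higher and 217 lower of the 1675 annotated loci under a mean FPKM of 5, and 19 and 13 of the 846 at 100 or more. Of the 358 loci called higher 122 were under an FPKM of 1 in the KD library, and of the 363 called lower 130 were under 1 in the GFP library. Such loci were taken only through the library in which they were high, so their direction was fixed by the FPKM limit.

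The GFP plus EICD library gives a second view of sorted cells. Of the 358 annotated loci called higher, 228 had both sorted libraries above all 4 unsorted ones, which held for 14.4% of all loci tested. Of the 363 called lower, 133 had both below all 4, which held for 13.2%. A call already placed the GFP library on that side of the KD library. A larger share among called loci was therefore set in part by the selection. The 14.4% and 13.2% also include loci without annotation. The KD library itself stood apart at some loci. At an FPKM of 1 or more in KD it lay more than 2-fold above each of the other 5 libraries at 43 annotated loci. It lay more than 2-fold below each of them at 31 where all 5 others had 1 or more. Without that minimum the KD library was more than 2-fold below each at 41 of the 358 loci called higher. Differences at such loci rest on the KD library. The KD library entered every log2 difference, so most groups below are given also against the 427 library with DMSO, a control chosen after the values were seen.

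**Figure D2:**
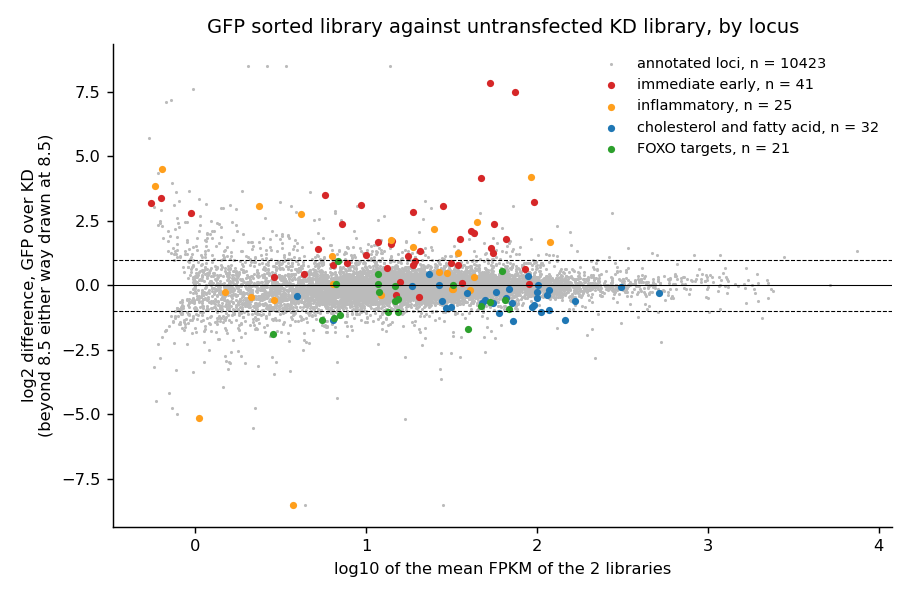
Log2 difference of the GFP over the KD library against the log10 mean FPKM, 1 point per annotated locus (n = 10423), with members of 4 gene lists coloured and dashed lines at 2-fold. Immediate early genes lie above the cloud across a wide range of levels, with Fosb and Fos at 7.85 and 7.48, and cholesterol genes lie mostly below 0.

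Immediate early genes are transcribed within minutes of a growth factor, serum or stress signal, without new protein synthesis. They encode transcription factors such as Fos, Jun and Egr1, which switch on a later set of genes, and feedback proteins that shut the signal off. In cultured epithelial cells, serum, wounding and detachment are known triggers.

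Immediate early genes had the largest positive median difference of the gene lists, apart from the pancreas and hemoglobin lists above. Of 41 members tested, 26 were more than 2-fold higher and 0 lower, with a median log2 difference of 1.43, while 3.43% of annotated loci were called higher. Of the 26, 6 were under an FPKM of 1 in the KD library. Fos, a subunit of the AP-1 transcription factor (chr12:85473890-85477273), had an FPKM of 1.11 in 427 cells, 5.93 with PMA, 0.823 in the KD library, 2.54 with PMA, 148 in GFP and 244 in GFP plus EICD. Fosb, its close relative (chr7:19302696-19310056), had 0.463, 4.63, 0.445, 1.83, 105 and 168 in the same order. The sorted libraries were far above all unsorted ones, including those with PMA. The GFP to KD ratio was 178-fold for Fos and 231-fold for Fosb. The values correspond to about 44.4 fragments of Fos in the KD and 7842 in the GFP library, as upper estimates from the longest transcript.

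Egr1, a zinc finger transcription factor, had 10.3 in 427 cells, 8.63 with PMA, 5.02 in KD, 9.14 with PMA, 88.8 in GFP and 171 in GFP plus EICD. Atf3, a stress-induced factor, had 2.74, 9.91, 4.63, 6.20, 33.0 and 121. Jun, the main partner of Fos, had 15.6, 15.7, 16.1, 15.6, 55.3 and 90.8. All 3 were highest in the sorted libraries, and the Jun level was nearly equal in the 4 unsorted ones. Klf4, an epithelial differentiation factor, had 18.0 in KD and 93.9 in GFP, and Nr4a1, an orphan nuclear receptor, 2.35 and 12.1. The phosphatase gene Dusp1, which switches off MAP kinases, had 15.5 and 66.7, and the mRNA decay factor gene Zfp36 6.53 and 21.7. Both sorted libraries were above all 4 unsorted ones at 228 of the 358 annotated loci called higher, and at 16 of these 26 genes.

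For the other 10 a PMA library was above the GFP library. Areg, an EGF receptor ligand, had 3.41 in 427 cells, 57.7 with PMA, 0.929 in KD, 16.9 with PMA, 10.5 in GFP and 27.1 in GFP plus EICD. Fosl1, another Fos relative, had 4.71, 73.8, 1.92, 49.5, 16.7 and 27.8. Dusp6, the phosphatase that acts on ERK, had 11.1, 112, 5.98, 82.0, 50.6 and 43.6. These genes were lowest in the KD library and highest in a PMA library. Ier3, an early survival gene, had 18.8 in KD, 174 in GFP and 340 in 427 cells with PMA. Plaur, the urokinase receptor gene, was strongly PMA-high (232 in 427 cells) but not called between KD (13.3) and GFP (25.6). Srf, which encodes the serum response factor itself, had 23.5 in KD and 17.4 in GFP, a log2 difference of -0.43.

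At 20 of the 26 genes called higher the level was lower in the KD than in the 427 library with DMSO. The call itself favoured a low KD value, and the share over all called loci was not counted. With the 427 library as the control 24 members were higher and 0 lower, with a median of 1.13. In the GFP plus EICD library 24 of the 26 genes were higher still than in the GFP library, and 34 members were called against the KD library. The median log2 difference of GFP plus EICD over GFP was 0.07 over annotated loci.

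Promoter sequences, taken from RefSeq on GRCm38.p6, are shown for members in which a known binding motif of the group was found. The CArG box is bound by the serum response factor and the cyclic AMP response element (CRE, TGACGTCA) by CREB and ATF factors. A window of 300 bases was searched on both strands, from 250 bases before to 50 after each start. A CArG box was found in 7 of 42 immediate early promoters, covering 32 of 45 listed genes, and in 1.63% of all 32851 promoters. The 7 promoters belong to 4 genes, of which Egr2 (0.102 in KD, 3.91 in GFP) and Zfp36 were called higher and Dusp5 (10.2 and 16.3) and Srf were not. A CRE was found in 5 of 42, each of another gene, and in 1.79% of all. The 250 bases before the start are printed 5′ to 3′ with the motif in capitals, for Zfp36 with a CArG box (chr7:28379229-28379478, minus strand) and Areg with a CRE (chr5:91139349-91139598, plus strand). A match is a description of the letters and not evidence of binding. Both genes were higher in GFP than in KD, but Areg also in the PMA libraries, while Zfp36 was between 5.12 and 6.97 in all 4 unsorted libraries.
Zfp36: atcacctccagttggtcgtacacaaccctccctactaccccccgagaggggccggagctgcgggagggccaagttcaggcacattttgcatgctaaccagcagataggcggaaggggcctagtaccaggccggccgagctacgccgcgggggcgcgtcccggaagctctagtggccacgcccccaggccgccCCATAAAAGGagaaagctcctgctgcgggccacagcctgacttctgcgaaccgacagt
Areg: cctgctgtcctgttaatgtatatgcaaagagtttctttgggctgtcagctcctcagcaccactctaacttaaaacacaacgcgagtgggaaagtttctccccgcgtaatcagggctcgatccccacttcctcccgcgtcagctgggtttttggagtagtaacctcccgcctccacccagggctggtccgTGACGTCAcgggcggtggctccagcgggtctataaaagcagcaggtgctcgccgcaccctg

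Inflammatory genes are induced by NF-kappaB, a transcription factor released by cytokines and by protein kinase C, the target of PMA. Of 25 members tested 12 were more than 2-fold higher and 2 lower in the GFP library, with a median of 0.53. Of all annotated loci 3.43% were higher and 3.48% lower. Of the 12, 3 were under an FPKM of 1 in the KD library, and both lower members were under 1 in the GFP library. Cxcl1, a chemokine that attracts neutrophils (chr5:90891184-90893115), had 28.1 in 427 cells, 638 with PMA, 9.65 in KD, 168 with PMA, 175 in GFP and 504 in GFP plus EICD. Il1a, the cytokine interleukin 1 alpha, had 36.7, 406, 13.9, 161, 75.6 and 163. Ptgs2, the inducible prostaglandin synthase, had 86.5, 286, 56.6, 111, 181 and 179. The KD library was the lowest of the 6 for all 3, and the GFP library was below 427 cells with PMA.

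That pattern was common in the group. For all 12 genes the 427 library with PMA was above the GFP library, and for 11 the 427 library with DMSO was above the KD library. Being called higher already favoured a low KD value, and the same shares over all called loci were not counted. At 0 of the 12 were both sorted libraries above all 4 others. The NF-kappaB feedback genes Nfkbia (20.2 in KD, 48.6 in GFP) and Tnfaip3 (9.99 and 27.8) were higher, while Nfkb1 (43.1 and 37.8) and Icam1 (1.61 and 1.36) were within 2-fold. The 427 control gave 9 higher and 4 lower members. Without the loci where the KD library stood apart 7 members were higher.

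The 2 lower members were acute phase genes. Saa3, a serum amyloid gene, had 24.4 in 427 cells, 29.0 with PMA, 7.47 in KD, 10.9 with PMA and 4.33 in GFP plus EICD, and was listed at 0 in GFP. Lcn2, which encodes the iron carrier lipocalin 2, had 14.5, 24.1, 2.04, 2.93, 0.0489 in GFP and 0.534 in GFP plus EICD. Both sorted libraries were below all 4 unsorted ones for these genes.

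An NF-kappaB site was found in 13 of 31 promoters of inflammatory genes, those of 11 genes, covering 25 of 35 listed genes, and in 4.51% of all promoters. The Cxcl1 promoter (chr5:90890995-90891244, plus strand) holds 2 overlapping matches, on opposite strands, which are printed in capitals.
Cxcl1: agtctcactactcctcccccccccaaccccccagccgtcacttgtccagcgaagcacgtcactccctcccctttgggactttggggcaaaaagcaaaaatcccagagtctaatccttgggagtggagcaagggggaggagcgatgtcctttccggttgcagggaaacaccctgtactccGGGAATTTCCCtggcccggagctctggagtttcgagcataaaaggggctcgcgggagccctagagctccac

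Genes of TGF-beta and BMP signalling, which act through SMAD transcription factors, were mixed. Of 18 tested 6 were more than 2-fold higher and 0 lower, with a median of 0.44, beside 3.43% of annotated loci higher. Id2, an inhibitor of basic helix-loop-helix factors (chr12:25093801-25096092), had 4.78 in 427 cells, 2.09 with PMA, 5.36 in KD, 1.78 with PMA, 42.9 in GFP and 55.3 in GFP plus EICD. Id3, of the same family, had 26.0, 24.3, 32.1, 21.9, 83.8 and 129. Hes1, a Notch-responsive repressor, had 41.3, 23.9, 32.4, 24.0, 106 and 143. The sorted libraries were above all unsorted ones for each, and all 3 were lower with PMA than with DMSO.

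Tgfbi, an extracellular TGF-beta target, had 8.07 in KD and 26.1 in GFP. Bmp4 (7.84 and 4.70) and Id4 (2.62 and 1.51), both within 2-fold, had negative differences. Id1 has no locus of its own in the table. Its annotated span lies inside the assembled locus named Hm13 (chr2:152669405-152737410), the signal peptide peptidase gene. This locus had 91.6 in 427 cells, 94.4 with PMA, 97.3 in KD, 84.1 with PMA, 244 in GFP and 223 in GFP plus EICD, and fragments of Hm13 and Id1 in it cannot be told apart. The related proteases Sppl2a (61.0 in KD, 65.5 in GFP) and Sppl3 (61.2 and 67.1) were nearly equal. With the 427 control 5 of the TGF-beta and BMP genes were higher and 1 lower.

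The circadian clock is a feedback loop in which Clock and Arntl switch on Per, Cry and Nr1d genes, whose products repress the loop, and serum or glucocorticoid can reset it in culture. Of 16 clock genes 6 were more than 2-fold higher and 0 lower in the GFP library, with a median of 0.66. The share of all annotated loci called higher was 3.43%. Of the 6 genes, Dbp and Per2 were under an FPKM of 1 in the KD library and entered only through the GFP library. Bhlhe40, a repressor of the loop, had 36.0 in 427 cells, 63.6 with PMA, 24.5 in KD, 60.5 with PMA, 86.8 in GFP and 98.4 in GFP plus EICD. Nr1d1, the nuclear receptor REV-ERB alpha, had 14.0, 21.6, 7.89, 11.8, 33.1 and 21.2. Dbp, an output factor of the clock, had 1.20, 0.544, 0.720, 0.562, 4.42 and 4.57. Not every repressor was higher. Cry1 had 9.98 in KD and 8.84 in GFP, and Per3 3.93 and 4.03. The activators Clock (20.1 and 29.8) and Arntl (8.04 and 7.20) were also within 2-fold. Both sorted libraries were above all 4 others at 11 of the 16 genes, which held for 14.4% of all loci tested. By the 427 control 3 genes were higher, with a median of 0.41. An E-box (CACGTG), the letters that Clock and Arntl bind, was found in 6 of 21 clock gene promoters and in 7.15% of all. Time of harvest was not given for any library.

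Keratins are the intermediate filaments of epithelia, with Krt5 and Krt14 in basal cells, Krt16 and Krt17 in stressed or wounded cells and Krt8 and Krt18 in simple epithelia. Of 14 keratin genes tested 6 were more than 2-fold higher and 1 lower, beside 3.43% and 3.48% of annotated loci. Of the 6, 2 were under an FPKM of 1 in the KD library and entered only through the GFP library. Krt14 had 2154 in 427 cells, 1961 with PMA, 1785 in KD, 1355 with PMA, 3820 in GFP and 2456 in GFP plus EICD. Krt16 had 53.3, 145, 15.5, 48.3, 130 and 131, and Krt17 728, 1158, 505, 687, 1152 and 1000.3. Krt8 had 80.1, 136, 311, 403, 143 and 70.2. The basal and stress keratins were thus higher and the simple keratin Krt8 was lower in the GFP library, and Krt18 (89.6 in KD, 49.5 in GFP) lay on the same side as Krt8 within 2-fold. Against the 427 library with DMSO, Krt8 had a positive difference.

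The locus named Krt5 (chr15:101638928-101715551) had 4246 in KD and 10705 in GFP, but it spans Krt6a and Krt6b, so that the 3 genes cannot be told apart. Further genes known from basal epithelia were picked from the matrix, adhesion and thymic epithelial lists after their values were seen. Col17a1, a hemidesmosome collagen, had 183 in KD and 503 in GFP, and the desmosome gene Dsp 67.2 and 158. Trp63, the transcription factor of basal epithelia, had 30.5 and 62.7. Itga6 (46.2 and 87.5) and Itgb4 (88.6 and 174), which encode the hemidesmosome integrin, stayed just under 2-fold. Other members of these lists were not higher, such as Epcam (209 and 153) and Itgb1 (458 and 452). The levels of Col17a1, Dsp, Trp63, Itga6 and Itgb4, so picked, were above all 4 unsorted libraries in both sorted ones. This held for 3 of 23 matrix, 8 of 22 adhesion and 6 of 12 thymic epithelial genes, and for 14.4% of all loci tested. The reverse held for 9, 3 and 2 members of these lists. Relative to 427 cells with DMSO 3 keratins were higher and 2 lower.

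Genes of MHC class I presentation were partly higher. Of 13 loci tested 3 were more than 2-fold higher and 0 lower, with a median of 0.01, beside 3.43% of annotated loci higher. Of the 3, Nlrc5 and Tap2 were under an FPKM of 1 in the KD library and entered only through the GFP library. Nlrc5, the transactivator of these genes, had 0.156 in 427 cells, 0.126 with PMA, 0.0107 in KD, 0.0385 with PMA, 1.06 in GFP and 1.19 in GFP plus EICD. The peptide transporter genes Tap1 (1.30 in KD, 5.13 in GFP) and Tap2 (0.669 and 2.09) were higher, while B2m, the light chain of class I, had 327 and 313. All 3 called genes were low in level. Interferon-stimulated genes were divided, with 2 of 27 loci higher, 3 lower and a median of -0.06. Of the higher loci 1 was under an FPKM of 1 in KD, and of the lower loci 1 in GFP. Isg15, a ubiquitin-like protein gene, had 1.02 in KD and 3.27 in GFP, and Gbp2, a guanylate-binding protein gene, 2.07 and 0.578. Cytosolic sensors of DNA and RNA, through which transfected DNA can induce interferon, gave 1 of 15 higher and 0 lower.

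The p53 targets gave 4 of 27 higher and 1 lower, with a median of 0.51, beside 3.43% and 3.48% of annotated loci. Those higher were Epha2 (23.7 in KD, 73.7 in GFP), Plk3 (4.44 and 10.3), Plk2 (47.9 and 110) and Btg2 (11.0 and 24.0). Epha2 (181 in 427 cells and 116 in KD cells with PMA) and Plk3 (36.6 and 18.6) were above the GFP level in both PMA libraries. Plk2 and Btg2 were highest in the sorted libraries, and Btg2 is also in the immediate early list. Cdkn1a, the cell cycle inhibitor p21, had 60.9 in 427 cells, 42.5 in KD and 77.2 in GFP, and Bax, which promotes cell death, 66.5 in KD and 60.2 in GFP. With the 427 library as control 0 of the group passed 2-fold, and the median was 0.16. The GFP plus EICD library gave 11 higher than in KD, with a median of 0.82. The stress kinase gene Sgk1, induced by serum and glucocorticoid, had 41.8, 63.9, 60.6 and 70.2 in the unsorted libraries, 252 in GFP and 132 in GFP plus EICD. Tsc22d3, another glucocorticoid target, had 27.1 in KD and 10.2 in GFP, so the 12 glucocorticoid targets were divided, with 3 higher and 2 lower.

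Genes of ribosome biogenesis, which encode processing factors and RNA polymerase I subunits, showed small differences in a single direction. All 34 had a positive log2 difference, 0 passed 2-fold and the median was 0.53. Nop56, a core protein of the box C/D complex, had 152 in 427 cells, 228 with PMA, 158 in KD, 276 with PMA, 287 in GFP and 272 in GFP plus EICD. Polr1b, a subunit of RNA polymerase I, had 21.6, 37.7, 19.6, 44.9, 34.4 and 30.3. For these 2 genes the GFP library was above both DMSO libraries. The summed FPKM of the 34 was 3008 in 427 cells, 4077 with PMA, 3090 in KD and 4274 with PMA. It was 3820 in GFP and 3135 in GFP plus EICD. At 1 of the 34 both sorted libraries were above all 4 unsorted ones, beside 14.4% of all loci tested. The median over the group was 0.18 for the GFP plus EICD library over KD. Compared with 427 cells with DMSO 31 of the 34 were higher in GFP, with a median of 0.37, beside -0.03 over annotated loci. Myc, a regulator of this program, had 33.0 in KD and 77.7 in GFP.

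**Figure D3:**
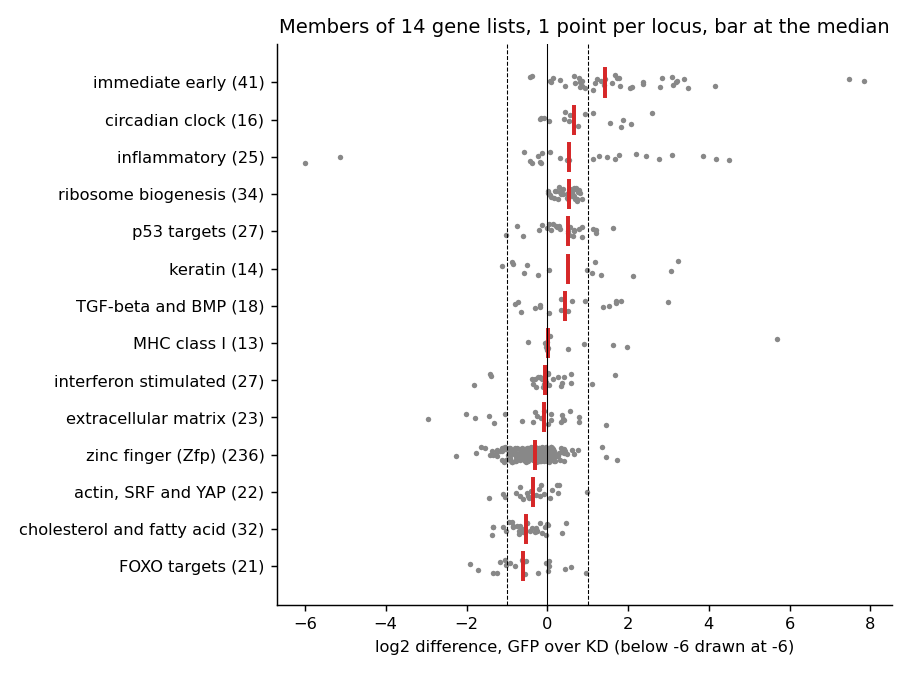
Log2 difference of the GFP over the KD library for the members of 14 gene lists, 1 point per locus tested, with the number of loci in brackets, red bars at the medians and dashed lines at 2-fold. The median is 1.43 for immediate early genes, 0.53 for ribosome biogenesis with all points above 0, and -0.59 for FOXO targets.

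Sterol synthesis genes are switched on by SREBP2 when membrane cholesterol is low, as happens when serum lipoproteins are taken away. Of 32 cholesterol and fatty acid genes tested 5 were more than 2-fold lower and 0 higher in the GFP library, 28 had a negative difference and the median was -0.53. Beside this, 3.48% of annotated loci were called lower. Hmgcs1, an early enzyme of the pathway (chr13:119690375-119708086), had 104 in 427 cells, 39.6 with PMA, 210 in KD, 109 with PMA, 83.0 in GFP and 48.8 in GFP plus EICD. Insig1, which holds SREBP back when sterols are high, had 62.8, 29.3, 105, 71.3, 40.7 and 23.4. Lss, lanosterol synthase, had 35.1, 11.7, 81.2, 41.0, 38.2 and 27.7. The KD library was the highest of the 6 for each of these.

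The KD library was the highest of the 6 for 27 of the 32 genes and was above the 427 library for all 32. Over annotated loci the median log2 difference of the KD over the 427 library with DMSO was 0.04. The share of all loci with the KD library highest was not counted. Srebf1, the fatty acid regulator, had 77.4 in KD and 99.5 in GFP. Against the 427 library the group had 0 lower and 1 higher member, and 21 of the 32 were higher in GFP. The median of the group was 0.13, beside -0.03 over annotated loci. The lower sterol levels therefore depended on which DMSO library was the control. Against the KD library the GFP plus EICD library had 15 lower.

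A sterol response element (SRE, searched as TCACNCCAC) was found in 1 of 32 promoters of the group, covering 26 of 37 listed genes, and in 1.24% of all promoters. It was that of Hmgcs1 (chr13:119690101-119690350, plus strand), shown with the match in capitals.
Hmgcs1: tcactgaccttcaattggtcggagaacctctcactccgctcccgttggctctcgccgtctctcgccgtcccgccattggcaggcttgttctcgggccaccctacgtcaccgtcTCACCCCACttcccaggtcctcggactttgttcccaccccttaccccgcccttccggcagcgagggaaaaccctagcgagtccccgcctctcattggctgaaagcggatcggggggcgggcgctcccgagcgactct

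FOXO transcription factors enter the nucleus when growth factor signalling through AKT is low, and their targets slow the cell cycle and atrophy tissue. Of 21 targets of FOXO and serum withdrawal tested 7 were more than 2-fold lower and 0 higher, with a median of -0.59. The share of annotated loci called lower was 3.48%. Ccng2, a cyclin that opposes division, had 38.3 in 427 cells, 13.3 with PMA, 60.9 in KD, 17.5 with PMA, 18.6 in GFP and 19.2 in GFP plus EICD. Sesn1, an inhibitor of mTORC1, had 11.0, 3.64, 18.0, 5.51, 8.80 and 10.6. Fbxo32, the ubiquitin ligase atrogin-1, had 10.3, 7.42, 9.18, 6.16, 3.84 and 7.25. The GFP library was below both DMSO libraries for all 3, and for Ccng2 it was close to the KD library with PMA.

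The FOXO motif GTAAACA was found in 5 of 27 promoters of the group and in 3.65% of all. The KD library was above its PMA library at 17 of the 21 genes and was the highest unsorted library at 13. These shares were not counted over all loci. The median log2 difference of KD plus PMA over KD was -0.15 over annotated loci. Pik3ip1, an inhibitor of PI3 kinase, had 7.90 in KD, 3.11 in GFP and 7.08 in GFP plus EICD. The classical targets Cdkn1b (78.0 in KD, 52.8 in GFP), Irs2 (9.96 and 13.5) and Bcl2l11 (14.9 and 14.7) were within 2-fold. Txnip, an inhibitor of glucose uptake, had 31.9 in KD, 32.2 in GFP and 108 in GFP plus EICD. Against the 427 library 4 members were lower and 1 higher. In the GFP plus EICD library 1 was lower and 3 higher against KD, and at 0 of the 7 genes called lower were both sorted libraries below all 4 others.

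Extracellular matrix genes were lower in part. Of 23 tested 6 were more than 2-fold lower and 1 higher, with a median of -0.07, beside 3.48% of annotated loci lower. Of the 6, 2 were under an FPKM of 1 in the GFP library, Col5a1 among them, and entered only through the KD library. Thbs1, thrombospondin 1 (chr2:118111847-118127133), had 594 in 427 cells, 594 with PMA, 454 in KD, 424 with PMA, 166 in GFP and 133 in GFP plus EICD. Lox, the enzyme that crosslinks collagen, had 99.4, 52.0, 50.0, 26.6, 14.4 and 21.2. Spp1, osteopontin, had 98.4, 222, 78.2, 203, 19.4 and 28.8. Both sorted libraries were below all 4 unsorted ones at 133 of the 363 annotated loci called lower, and at 5 of the 6 lower matrix genes. Col5a1 (2.01 in KD, 0.250 in GFP) and Col12a1 (18.7 and 7.51), both of the interstitial matrix, were also among them. Fn1, fibronectin, had 360 in KD and 232 in GFP, while the basement membrane laminins Lama3 (39.6 and 68.5) and Lamb3 (61.0 and 106, in a locus that also spans G0s2 and Hsd11b1) had positive differences. The 427 control also gave 6 lower matrix genes.

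The actin genes are controlled by SRF with its cofactor MRTF and by YAP, which respond to cell spreading and tension. Of 22 tested 3 were more than 2-fold lower and 0 higher, with a median of -0.34, beside 3.48% of annotated loci lower. The 3 were Actg1, Ankrd1 and Thbs1, which was also counted among the matrix genes. Actb stayed within 2-fold. Actb, cytoplasmic beta actin, had 2200 in 427 cells, 3244 with PMA, 2069 in KD, 2640 with PMA, 1293 in GFP and 995 in GFP plus EICD. Actg1, gamma actin, had 1236, 1984, 1368, 1514, 662 and 511, and Ankrd1, a YAP target, 59.5, 85.5, 49.9, 64.7, 23.3 and 26.5. Both sorted libraries were below all 4 unsorted ones for each, and for 13 of the 22 genes. This held for 13.2% of all loci tested. Ctgf, another YAP target, had 18.0 in KD and 35.8 in GFP, so the targets were not all on the same side. Cyr61 had 112 and 106.

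**Figure D4:**
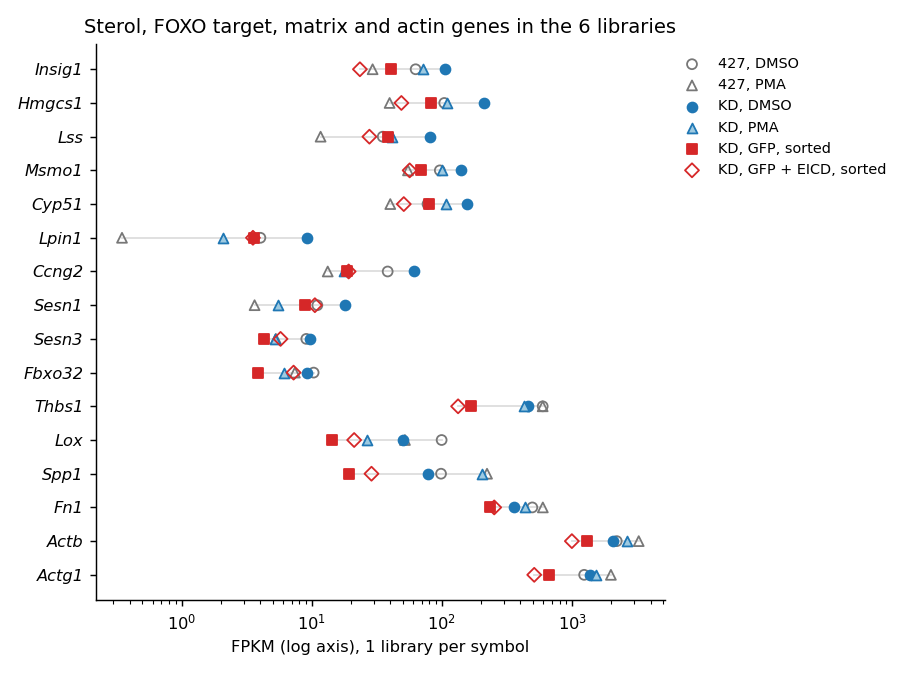
FPKM (log axis) of sterol, FOXO target, matrix and actin genes, 1 symbol per library, with 427 libraries in grey, KD libraries in blue and sorted libraries in red (circles DMSO, triangles PMA). The KD library with DMSO is the rightmost symbol for sterol genes such as Hmgcs1 (210), and both sorted libraries are leftmost for Thbs1 (166 in GFP) and Actg1 (662).

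Zinc finger genes named Zfp, many of which encode DNA-binding repressors, were tested at 236 loci. Of these 23 (9.75%) were lower and 3 higher, with a median of -0.31. Of all annotated loci 3.48% were lower. At a mean FPKM under 5, where lower calls were more frequent, 17 of 95 zinc finger genes (17.9%) and 13.0% of annotated loci were lower. Of the 23, 7 were under an FPKM of 1 in the GFP library. Most were of low level, such as Zfp873 (1.74 in KD, 0.507 in GFP) and Zfp799 (3.47 and 1.10), while Zfp101 had 18.3 and 6.83. Those higher were the RNA-binding Zfp36, Zfp750, a factor of epidermal differentiation (4.21 and 11.6), and Zfp365 (6.86 and 17.5). The 427 control gave 15 lower and 6 higher zinc finger genes. With 1 added to each FPKM 5 were lower.

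Among single genes, the 15 largest positive differences at an FPKM of 10 or more held 8 immediate early genes, Cxcl1, Id2 and Krt16, described above. Of the others, Senp3, a SUMO protease of the nucleolus (chr11:69673115-69682084), had 61.1 in 427 cells, 73.7 with PMA, 68.4 in KD, 80.8 with PMA, 480 in GFP and 379 in GFP plus EICD. Arhgap22, a Rac GTPase-activating protein (chr14:33214026-33369934), had 9.47, 9.56, 11.5, 7.73, 81.1 and 68.8. Both were nearly flat or low in the unsorted libraries and high in both sorted ones. Nrg1, the EGF receptor family ligand neuregulin 1, had 6.21 in KD, 36.6 in GFP and 43.5 in 427 cells with PMA.

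The 15 largest negative differences included genes low in both sorted libraries. Amot, a partner of YAP at cell junctions (chrX:145446425-145505425), had 22.6 in 427 cells, 10.6 with PMA, 50.7 in KD, 20.4 with PMA, 4.13 in GFP and 3.88 in GFP plus EICD. Clu, the secreted chaperone clusterin, had 23.9, 15.8, 29.7, 13.7, 4.29 and 8.79. Ppbp, a platelet chemokine precursor, had 144, 267, 84.8, 123, 14.2 and 7.62. For 10 of the 15 both sorted libraries were below all 4 others. U90926 (13.0 in KD, 0.616 in GFP), Sema3e, a secreted guidance factor (61.5 and 8.97), Alcam, an adhesion molecule (35.4 and 8.73), and the paired membrane protein genes Tmem176a (19.5 and 4.02) and Tmem176b (91.5 and 22.1) were among these 10, as was CAAA01147332.1 on an unplaced contig (872 and 193).

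At 6 of the 15, Amot included, the KD library lay more than 2-fold above each of the 5 other libraries. Nrd1, a metalloprotease (chr4:109000459-109061777), had 61.9 in 427 cells, 49.8 with PMA, 382 in KD, 50.3 with PMA, 54.3 in GFP and 58.4 in GFP plus EICD. Coq4, of ubiquinone synthesis, had 47.5 in KD and 7.74 to 11.9 in the others. Arg1, arginase 1, had 12.1 in KD, 6.01 with PMA and 1.54 in GFP. Bnip3, a mitophagy receptor, had 35.3 in KD and 7.08 in GFP, and Ypel1 12.4 and 3.20. For these genes the KD library differed from the other unsorted libraries as well. Differences at annotated loci listed at 0 in 1 of the libraries have no fold. There were 11, of which 2 reached an FPKM of 10, namely Ins2 in GFP and the predicted gene Gm11027 in KD (56.3).

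In most other lists few members passed 2-fold, beside 3.43% of annotated loci higher and 3.48% lower. Of the cell cycle genes, 49 of G2 and mitosis gave 0 higher and 0 lower with a median of -0.19, and 44 of G1 and S phase gave 1 higher. Unfolded protein response genes gave 0 of 24 in either direction and heat shock genes 1 of 22 lower, Cryab (11.6 in KD, 3.85 in GFP). Of 41 genes of the integrated stress response 3 were higher, Atf3, Gdf15 (0.344 and 1.78, with 2.39 in 427 cells) and Ppp1r15a (12.5 and 30.8). NRF2 targets gave 2 of 25 higher and 1 lower, the ferritin gene Ftl1 (310 in KD, 77.8 to 160 in the others). Hypoxia and glycolysis genes gave 2 of 34 higher and 2 lower, and autophagy and lysosome genes 0 of 31. Genes of protein chains of the ribosome gave 3 of 78 higher and 1 lower with a median of 0.23, and nuclear genes of oxidative phosphorylation 0 of 73 higher and 2 lower. Integrin and adhesion genes gave 1 of 22 higher, Dsp, and proteases with their regulators 2 of 17 higher and 1 lower, the macrophage elastase Mmp12 (2.76 in KD, 0.459 in GFP, 5.73 in GFP plus EICD). Histone cluster loci had more calls for their number, with 4 of 9 higher, 1 lower and a median of 0.75. All 5 were at low levels, such as Hist1h1c (1.13 and 3.60), and 3 of the 4 higher were under an FPKM of 1 in KD and the lower one, Hist1h4k (1.46 and 0.588), in GFP. Solute carriers gave 4 of 155 higher and 5 lower, including the iron exporter Slc40a1 (7.54 and 2.29) and the nucleoside transporter Slc29a2 (6.75 and 16.4). Glutathione transferases gave 1 of 8 higher, Gsta1 (0.482 and 2.37), and metallothioneins 0 of 3.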

How the data were processed

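RNA from 6 libraries, 1 per condition, was sequenced by the authors as paired-end reads from oligo-dT libraries. The deposited FPKM values come from TopHat2 2.1.1, Cufflinks 2.1.1 and Cuffdiff 2.1.1 on GRCm38, and the processing notes also name STAR 2.4.0b. The values cover 25001 protein-coding loci, of which 21784 are annotated and 3217 newly assembled. Strand was not stated, and an assembled locus can take up its neighbours, so that each FPKM depends on these models. From these, log2 ratios of GFP to KD were computed with Python 3.11.15, NumPy 2.4.6 and pandas 2.3.3 after 0.01 was added, for loci at FPKM 1 or more in at least 1 library. Plots used matplotlib 3.10.9. The steps were checked on simulated data.

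Depth was estimated from what 1 fragment is worth in FPKM, at single-transcript genes of over 2500 bases with an FPKM under 0.1. Values outside 15 to 60 times 1000000 fragments were left out, so that range bounds the estimate.

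Members and gene lists were chosen with earlier results of these data known, and the pancreas and hemoglobin lists and 5 of the motifs after the values were seen. Genes were named by rule, the 15 largest differences each way at FPKM 10 or more, the 4 largest each way in a list, and genes whose role defines a list; a few of these are not reported here. There were 10 planned and 2 added alternatives.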

Additional observations from a re-analysis of the deposited data

How the results depend on the processing

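No paired analysis was possible because each condition has 1 library, all numbered 1, and no library could be left out. Scaling by the upper quartile, by the median ratio or to an FPKM sum of 1000000, and 0.1 added to each FPKM, kept the overall counts and the counts of the 9 lead lists within 1.5 times. The 10 highest loci of each library, all newly assembled, held 88.2% of the FPKM sum in the KD and 85.6% in the GFP library. Scaling to the sum therefore says little about the other loci. The overall median, -0.08, moved by less than 0.1 under all 12 alternatives. With 1 added, 279 loci were higher, 265 lower, and 5 zinc finger genes lower. At a minimum FPKM of 10 these were 182, 139 and 4, with 7 inflammatory and 2 clock genes higher and 3 FOXO targets lower. At a minimum of 0.1, 1491 loci were higher and 1893 lower. With no filter these were 2455 and 2565, with 14 keratins higher, and 10 matrix and 41 zinc finger genes lower. Annotated loci alone gave 363 lower. The GFP plus EICD library over KD gave 839 loci and 19 inflammatory genes higher, and 15 sterol, 1 FOXO and 12 zinc finger genes lower. With the 427 control there were 3 clock genes and 3 keratins higher, and 0 sterol, 4 FOXO and 15 zinc finger genes lower. Without loci where KD stood apart 7 inflammatory genes were higher. The last 2 settings were chosen after seeing the data. Of 103 called genes examined singly 5 changed sign, Alas2 (-0.64), Gdf15 (-0.42), Krt8 (0.83) and Lss (0.12) with the 427 control and Mmp12 (1.05) in the GFP plus EICD library, and 144 other values moved by over 0.5, of which 97 came with another control or sorted library. Apart from a change of control or of sorted library, low FPKM limited these counts most.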
